A study of Mus musculus with 12 samples.

Results

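Heat-shock proteins and chaperonins were followed in TEL-JAK2 leukemia of the mouse thymus, on 12 Affymetrix expression arrays. The members are the genes whose single annotated symbol starts with Hspa, Hspb, Hspd, Hspe, Hsph, Hsp90, Dnaja, Dnajb or Dnajc, together with the 8 subunit genes of the cytosolic chaperonin TRiC. This rule found 55 of the 8251 genes on the array. Where a gene had several probe sets, the brightest on average was read. The rule takes in J-domain co-chaperones, many of which are not induced by heat, and also Hspbp1, which binds HSP70 proteins, and Hspb11, better known as the cilium transport gene Ift25. The leukemia group holds 8 arrays of leukemic cells from the thymus of terminally ill C57BL/6 mice of the genotype TEL-JAK2, whose age the labels do not state. The control group holds 4 arrays of thymocytes from wild-type C57BL/6 mice aged 2 months. Neither the promoter that drives TEL-JAK2, a fusion of the transcription factor TEL with the tyrosine kinase JAK2, nor the share of leukemic cells is stated. The labels do not say that each array comes from its own animal, and p-values cover only the spread among these arrays, which may be technical. Genotype, disease and possibly age differ together between the groups and cannot be told apart.

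Molecular chaperones bind unfolded proteins and use ATP to let them fold, cross membranes or assemble. J-domain proteins deliver clients to HSP70 and stimulate its ATPase, HSP110 proteins and other exchange factors reset HSP70 by releasing ADP, and HSP90 takes over late folding of kinases and receptors with its own co-chaperones. The chaperonins are double-ring chambers: HSP60 (Hspd1) with its lid HSP10 (Hspe1) in mitochondria, and TRiC, which folds actin and tubulin, in the cytosol. Heat-shock factor 1 switches on a cytosolic and mitochondrial set through heat-shock elements, repeats of the letters GAA in alternating orientation, while the set of the endoplasmic reticulum (ER) answers to unfolded protein there.

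Array medians lay between 66.48 and 70.18 on the linear intensity scale. The T-cell markers Cd3e, Cd3g, Thy1 and Cd8a had mean log2 intensities above 10 in both groups. Rag1 varied widely, with a mean of 9.42 (SD 2.06) in leukemias and 11.91 (SD 0.08) in thymocytes. Its difference of -2.50 did not pass (limma adjusted p = 0.082). Summed over 9 T-cell and thymocyte markers, intensity was 9598 to 21895 in leukemias and 22024 to 22956 in thymocyte arrays, with Cd4 and Ptcra lower (-1.89 and -0.96 on the log2 scale). Summed over 12 macrophage markers it was 1292 to 6500 and 1346 to 1824, highest in leukemias 5 and 7, with 0 of 12 markers past the limma threshold, 2 at an unadjusted p under 0.05 and 0 by the exact rank-sum test. Over 5 B-cell markers it was 566.1 to 1216 and 557.7 to 568.3, and over 6 granulocyte markers 381.6 to 528.4 and 577.8 to 711.4, with 3 of 6 lower in leukemia. Over 4 erythroid markers it was 1019 to 6155 and 3239 to 6774. Over 5 markers of thymic epithelium it was 368.2 to 527.7 and 417.8 to 507.5, with Epcam higher (1.37) and Krt18 lower (-0.40), both near the control level in both groups. No marker was listed at 0. Title numbers have 4 digits on leukemias 2, 3, 4 and 5 and thymocyte arrays 1, 2 and 3, but not on leukemias 1, 6, 7 and 8. The title of thymocyte array 4 holds no number, and this array is grouped below with those 4 leukemias as having no 4-digit number. The labels do not explain the number.

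Of the 55 members 10 were lower in leukemia and 0 were higher (limma, Benjamini-Hochberg adjusted p under 0.05 over all genes). Over all genes 17.3% were called, 11.9% lower and 5.41% higher, so the 18.2% of members called was near the share called in either direction. As all 10 were lower, the like share is 11.9%, and the difference from it was not tested. At an unadjusted p under 0.05, 18 members were lower and 3 higher, against 1517 and 827 of the 8251 genes. The exact rank-sum test called 9 members lower and 0 higher, against 670 and 347 of all genes. In both groups 8 members not called were near the level of the array's non-mouse control probe sets. Without such genes 21.3% of 47 members were called, all lower. Of the 6037 genes left, 22.0% were called in either direction and 15.2% were lower. The median difference was -0.06 on the log2 scale over the members and 0.0037 over all genes. Differences were below 0 in 34 members (61.8%) and above 0 in 21. Of all genes 49.1% were below 0, and 53.2% of those not near the control level in both groups. On the probe set read for each gene, no member reached a 2-fold change, whether past the threshold or not. Of the 8251 genes, 219 both passed the threshold and reached it. In 9 members all 8 leukemias lay below all 4 thymocyte arrays, and in 0 above them; over all genes the groups did not overlap for 12.3%, with 8.11% below and 4.21% above.

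The fallen members were Hsph1, Dnajc15, Hsp90aa1, Hspa4l, Dnaja1, Hspd1, Dnajb4, Dnajc9, Dnajc8 and Dnaja3. They make up 2 of 11 HSP70 and HSP110 genes, 1 of 2 HSP90 genes, 6 of 27 J-domain genes and 1 of 2 mitochondrial chaperonin genes. Over all genes 11.9% were lower, and with so few genes per class nothing is read from these counts. The mean of these 10 genes, chosen for being lower, differed from the thymocyte mean by -0.45 to -0.76 in the 8 leukemias, farthest in leukemias 6, 5 and 8. Without thymocyte array 1 the count of members called was 6, all lower. That of all genes went from 1429 to 938, with 7.59% of all genes lower. With the macrophage marker score as a covariate 7 members (12.7%) were lower and 0 higher, Dnaja1, Dnaja3 and Dnajc8 no longer passing. Of all genes 1076 were then called, 8.36% being lower. Without leukemias 5 and 7 there were 7 members lower and 1 higher. Of all genes 1230 were called, 815 lower and 415 higher. The part of the T-cell marker sum, which is also lower in each leukemia, was not tested.

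The 10 fallen members were chosen for being lower over these same arrays. In all but Dnaja1 and Dnaja3 the groups did not overlap, which fixes the sign in any subset. Within the arrays that share a title-number type, the differences of all 10 kept their sign, which is therefore no independent evidence. With 4 digits (4 leukemias, 3 thymocyte arrays) and without (4 leukemias, 1 thymocyte array) they were -0.997 and -0.79 for Hsph1, -0.86 and -0.88 for Dnajc15, -0.66 and -1.10 for Hsp90aa1, -0.96 and -0.34 for Hspa4l and -0.41 and -0.72 for Dnaja1. For the others they were -0.48 and -0.58 for Hspd1, -0.43 and -0.60 for Dnajb4, -0.34 and -0.62 for Dnajc9, -0.17 and -0.41 for Dnajc8 and -0.29 and -0.14 for Dnaja3. Hspa4l had the smaller difference, and Hsp90aa1 the larger, among the arrays without 4 digits, where the comparison rests on a single thymocyte array; this contrast was not tested.

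**Figure D1:**
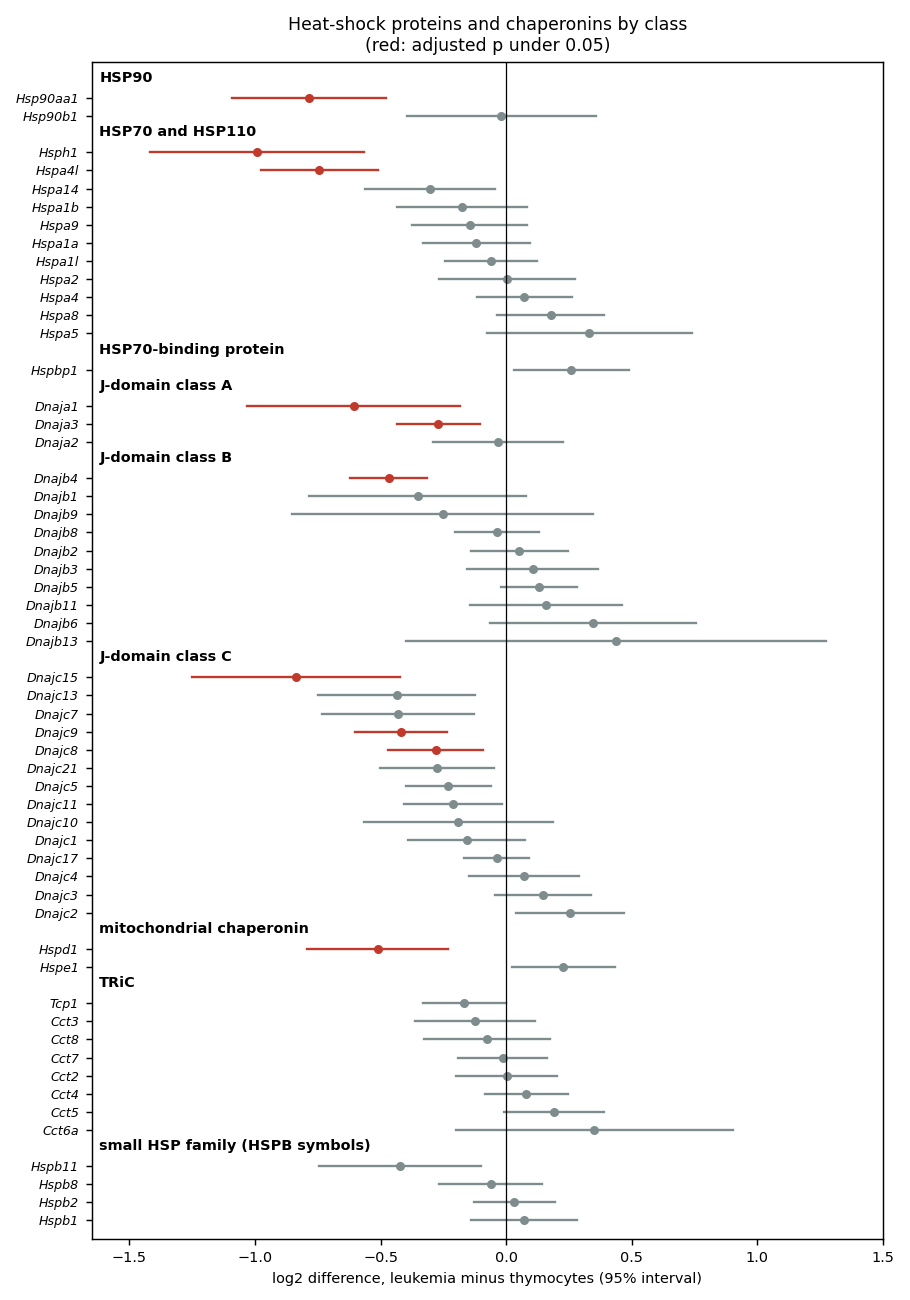
Each point is the log2 difference between the mean of 8 leukemias and the mean of 4 thymocyte arrays for 1 of the 55 members, grouped by class, with its 95% interval from limma as a horizontal line; red marks the 10 genes past the threshold. All red points lie left of 0, from Hsph1 at -0.99 to Dnaja3 at -0.27, and the 8 TRiC genes lie between -0.17 and 0.35.

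HSP90 was represented by its cytosolic, inducible form Hsp90aa1 and its ER form Hsp90b1. Hsp90aa1 had log2 intensities from 9.66 to 10.39 (median 10.06) across the leukemias, against 10.84, 10.74, 10.62 and 11.10 on the 4 thymocyte arrays. Every leukemia lay below every thymocyte array, leukemias 6 and 5 lowest. The means were 10.04 ± 0.27 (SD, n = 8) and 10.83 ± 0.20 (SD, n = 4), so that Hsp90aa1 was 1.72-fold higher in thymocytes (log2 difference -0.78, SE 0.14, limma adjusted p = 0.00177). A dim second probe set of this gene did not exceed the control level in either group. Hsp90b1, also called Grp94, had a difference of -0.02 (95% interval -0.40 to 0.36). Its leukemias ranged from 8.76 to 9.64 (median 9.36), 4 of them above and 3 below the thymocyte range of 9.14 to 9.38.

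The HSP110 genes Hsph1 and Hspa4l gave the largest fall and the smallest adjusted p among the members. HSP110 proteins are relatives of HSP70 that act as its exchange factors. Hsph1 ran from 6.31 to 7.15 (median 6.63) in leukemias and read 8.38, 7.63, 7.36 and 7.40 on the thymocyte arrays. The groups did not overlap, and thymocyte array 1 was the highest of all. The difference of -0.99 (SE 0.20, limma adjusted p = 0.00339, 1.99-fold) was -0.76 without that array and still passed. Hspa4l, described mainly in testis, ran from 6.46 to 6.85 (median 6.60) in leukemias and read 7.64, 7.53, 7.34 and 7.12 in thymocytes. Here too all leukemias were below all thymocyte arrays, thymocyte array 4 being nearest to them (difference -0.74, SE 0.11, limma adjusted p = 0.000395, 1.67-fold).

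The RefSeq promoter table (GRCm38.p6) holds heat-shock element letters near the annotated starts of Hsph1, and they are shown because this gene fell most. The first stretch, chr5:149636316-149636375 on the minus strand, is the 60 bases before the more downstream of its 2 starts, and the other, chr5:149636279-149636308, follows that start. Capitals mark the fixed letters of the repeats.
Hsph1 before the start: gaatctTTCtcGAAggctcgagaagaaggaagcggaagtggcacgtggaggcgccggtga
Hsph1 after the start: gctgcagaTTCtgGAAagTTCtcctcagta
The stretch after the start holds 3 units in a row, a form found in 0.603% of all 32851 promoter windows of the table.

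The remaining HSP110 gene, Hspa4, had probe sets that disagreed. Its brightest gave 0.07 (SE 0.09), and another 3 gave 0.23, 0.04 and 0.02, none past the limma test. Its other probe set gave -1.06 (SE 0.32, limma adjusted p = 0.0392 over all probe sets), with 7.84 to 8.25 in thymocyte arrays. Leukemia 2 lay within that range at 7.93, and the other 7 lay below it, down to 5.96 in leukemia 1. Hspa4 is therefore reported without a direction.

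The HSP70 genes proper did not pass. Hspa8 (Hsc70), the constitutive cytosolic form, ran from 8.68 to 9.30 (median 9.04) in leukemias, 6 of them above the thymocyte range of 8.73 to 8.98 (difference 0.18, SE 0.10, 95% interval -0.04 to 0.39). The classical stress-inducible genes Hspa1a and Hspa1b stayed near the control level in both groups, so a difference there could not be measured. Hspa14, which works at the ribosome, differed by -0.30 (SE 0.12, limma adjusted p = 0.107). Hspbp1, an exchange factor of HSP70, ran from 8.12 to 8.67 (median 8.50) in leukemias and read 7.99, 8.18, 8.14 and 8.43 in thymocytes. Leukemias 2, 4 and 5 lay below thymocyte array 4 and the other 5 above all 4 (difference 0.26, SE 0.11, limma adjusted p = 0.12).

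J-domain proteins are the largest family here, with 18 of 27 differences below 0, against 49.1% of all genes. Class A proteins resemble bacterial DnaJ along their whole length. Dnaja1, a cytosolic partner of HSP70, ran from 7.69 to 8.77 (median 8.21) in leukemias and read 9.17, 8.81, 8.68 and 8.72 in thymocytes. Leukemias 2 and 4 reached the thymocyte range, and leukemia 1 was lowest. The difference of -0.61 (SE 0.20, limma adjusted p = 0.049) sat at the threshold and passed in 2 of 12 fits that left out 1 array. With the title-number type as a block it did not pass (-0.51, limma adjusted p = 0.0575). Dnaja3 (Tid1), a mitochondrial J protein, ran from 7.37 to 7.74 (median 7.58) in leukemias and read 7.87, 7.85, 7.96 and 7.68 in thymocytes. Leukemia 8 exceeded thymocyte array 4, and the other 7 lay below all 4 (difference -0.27, SE 0.08, limma adjusted p = 0.0278). Without thymocyte array 1, 2 or 3 Dnaja3 did not pass. Dnaja2 differed by -0.03 (95% interval -0.29 to 0.23).

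Among class B proteins, which keep the J domain and a glycine-rich linker, 1 of 10 fell, against 11.9% of all genes. Dnajb4, a cytosolic co-chaperone, ran from 5.27 to 5.60 (median 5.45) in leukemias and read 5.81, 5.84, 5.91 and 6.04 in thymocytes. It was dim, with a leukemia mean of 5.43 just above the control level of 5.37, and the groups did not overlap (difference -0.47, SE 0.07, limma adjusted p = 0.00056, 1.38-fold). Dnajb1 (Hsp40), the main heat-inducible J protein, ran from 7.14 to 8.40 (median 7.99) in leukemias, with leukemias 1 and 7 lowest, against 8.11 to 8.48 in thymocytes (difference -0.35, SE 0.20, limma adjusted p = 0.277). Dnajb6, which holds back protein aggregation, was also lowest in leukemias 1 and 7, while the other 6 exceeded the thymocyte range of 8.43 to 8.67 (difference 0.35, SE 0.19, limma adjusted p = 0.262). Its other probe set gave 0.53 (SE 0.14, limma adjusted p = 0.021 over all probe sets).

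Class C collects J proteins with other layouts and specialised sites, and 3 of 14 fell, against 11.9% of all genes. Dnajc15 (MCJ), a mitochondrial inner membrane protein that restrains respiratory complex I, had the second largest fall of the members. It ran from 5.92 to 7.15 (median 6.46) in leukemias and read 7.49, 7.34, 7.21 and 7.48 in thymocytes. All leukemias were lower but ranged widely, leukemia 1 being near the thymocytes and leukemia 8 farthest (difference -0.84, SE 0.19, limma adjusted p = 0.00803, 1.78-fold). Its only probe set has a name that marks possible cross-hybridization.

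Dnajc9, a nuclear J protein that handles histones, ran from 8.65 to 9.04 (median 8.88) in leukemias and read 9.25, 9.29, 9.05 and 9.45 in thymocytes. Leukemia 1 fell just short of thymocyte array 3, and the groups did not overlap (difference -0.42, SE 0.09, limma adjusted p = 0.0039). Dnajc8, linked to splicing, ran from 9.87 to 10.32 (median 10.16) in leukemias and read 10.46, 10.39, 10.36 and 10.43 in thymocytes. The groups were close but separate (difference -0.28, SE 0.09, limma adjusted p = 0.0407), and Dnajc8 passed in 4 of 12 fits without 1 array. Its second probe set gave -0.20 (limma adjusted p = 0.0582 over all probe sets), and both names mark possible cross-hybridization.

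Several class C genes lay just outside the threshold. Dnajc7, which also binds HSP90, differed by -0.43 (limma adjusted p = 0.0514), the endosomal Dnajc13 by -0.44 (0.0551) and Dnajc5, the cysteine string protein of vesicles, by -0.23 (0.0613). In these genes 6, 4 and 7 of 8 leukemias, in that order, lay below every thymocyte array. With the title-number type as a block, which called 1624 of all genes, Dnajc7 and Dnajc13 passed, at limma adjusted p = 0.00994 and 0.00884. Dnajc2, a ribosome-associated J protein, had the opposite sign at 0.26 (SE 0.10, limma adjusted p = 0.105). It too passed with the block, upward (0.29, limma adjusted p = 0.0498), and its other probe set, at 0.31, passed over all probe sets (limma adjusted p = 0.0139). These 4 genes were singled out after their values were seen.

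**Figure D2:**
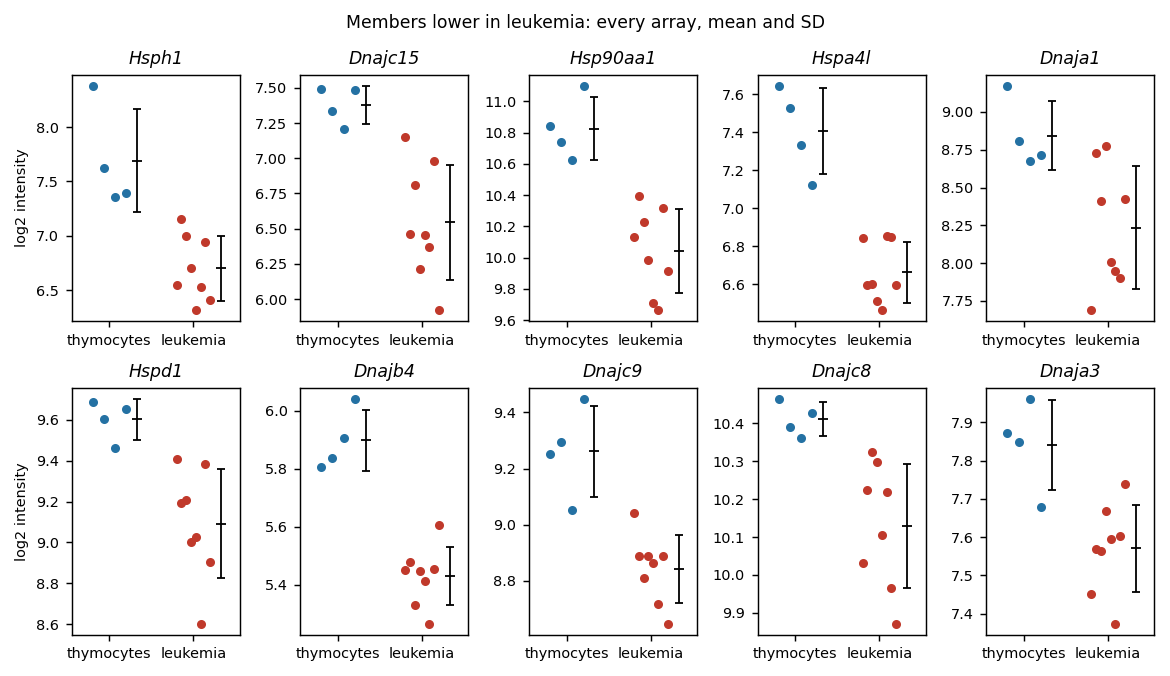
Log2 intensity on every array for the 10 members lower in leukemia, with thymocytes in blue (4 arrays), leukemias in red (8 arrays), and a bar for the mean and SD of each group; each panel has its own scale, which does not start at 0. Among these 10 the groups overlap in Dnaja1 and Dnaja3 alone.

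The mitochondrial chaperonin genes Hspd1 and Hspe1, whose products form a folding chamber and its lid, had differences of opposite sign. Hspd1 ran from 8.60 to 9.41 (median 9.11) in leukemias and read 9.69, 9.60, 9.46 and 9.65 in thymocytes. All leukemias were below all thymocyte arrays, leukemias 1 and 7 by little and leukemia 6 by most (difference -0.51, SE 0.13, limma adjusted p = 0.0151, 1.42-fold). Hspe1 ran from 7.85 to 8.24 (median 8.07) in leukemias and read 7.81, 7.75, 7.62 and 8.08 in thymocytes. All leukemias lay above thymocyte arrays 1 to 3 and 4 of them above the other, and the difference of 0.23 (SE 0.09, 95% interval 0.02 to 0.43) did not pass (limma adjusted p = 0.125). Within the arrays with and without a 4-digit number it was 0.36 and -0.08, so its sign was not kept. Hspe1 did pass, upward, within the arrays with 4 digits (limma adjusted p = 0.0439), without thymocyte array 4 (0.31, limma adjusted p = 0.035) and with array weights (0.33, limma adjusted p = 0.00324).

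The log2 gap between both genes on the same array was 0.72 to 1.35 in the leukemias (median 1.03) and 1.58 to 1.87 in the thymocyte arrays (median 1.85). The gap itself has no meaning, since probe sets differ in brightness, but it was smaller in each leukemia than in each thymocyte array. The pair was singled out after its values were seen, and no test was made of the gap. A second probe set of Hspd1, whose name marks possible cross-hybridization, gave 0.16 (SE 0.15). It was higher in leukemias 1, 6, 7 and 8, without 4-digit numbers, than in the other leukemias. Hspd1 was not called when its probe sets were averaged, nor without thymocyte array 1.

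Hspd1 and Hspe1 lie head to head on chromosome 1, and their RefSeq windows overlap. The annotated start of Hspe1 lies at position 55088148, and the 2 annotated starts of Hspd1 on the opposite strand at 55087932 and 55088243, 216 and 95 bases away. The stretch below, chr1:55088053-55088082 (GRCm38.p6, plus strand), is shown because it lies in the windows of both genes. Capitals mark 4 heat-shock units in a row, which begin at position -89 from the Hspe1 start.
Hspe1 and Hspd1: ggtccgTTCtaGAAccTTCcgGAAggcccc

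**Figure D3:**
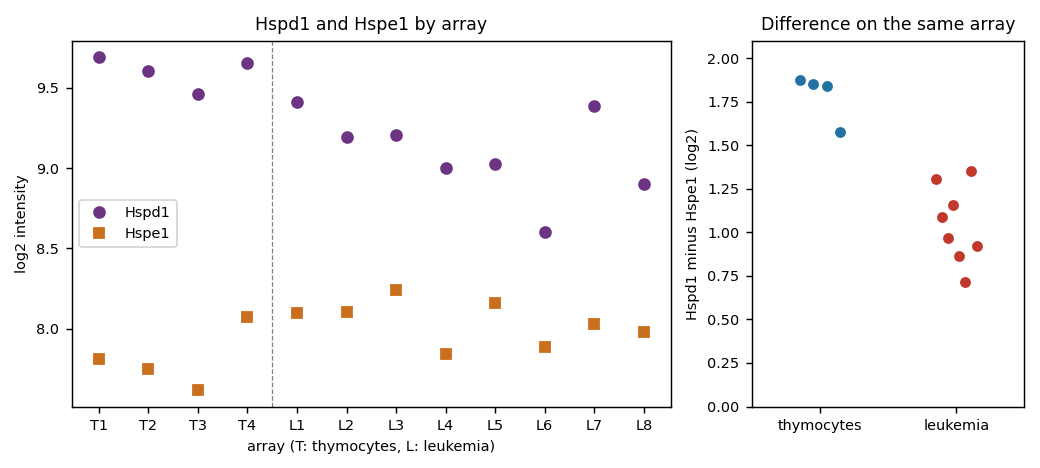
Left, log2 intensity of Hspd1 (circles) and Hspe1 (squares) on thymocyte arrays 1 to 4 (T) and leukemias 1 to 8 (L), on an axis that does not start at 0; right, the Hspd1 value minus the Hspe1 value on the same array. The gap lies between 1.58 and 1.87 in thymocytes and between 0.72 and 1.35 in leukemias.

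For TRiC, 0 of 8 subunit genes passed by limma and 0 by the exact rank-sum test, with 1 lower at an unadjusted p under 0.05, and the median difference was -0.0059. Cct5, the brightest subunit probe set, ran from 9.58 to 10.05 (median 9.87) in leukemias and read 9.75, 9.60, 9.44 and 9.78 in thymocytes. The groups overlapped, with 6 leukemias above the thymocyte range (difference 0.19, SE 0.09, limma adjusted p = 0.201). The other subunits differed by -0.17 (Tcp1) to 0.35 (Cct6a), and the 95% intervals were -0.36 to 0.11 for Cct3 and -0.09 to 0.24 for Cct4. The interval of Cct6a was wider, -0.20 to 0.90. Its probe set, whose name marks possible cross-hybridization, read 7.69 to 8.40 in leukemias 1, 6, 7 and 8 and 7.06 to 7.36 in leukemias 2 to 5, which differ in title-number type. Its other probe set gave -0.04. Dnajb13, a J protein of the sperm tail, split the same way on a probe set of that kind, with 8.51 to 9.41 against 7.25 to 7.66. What the title number had to do with these splits was not tested.

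Small heat-shock proteins hold unfolded proteins without ATP, and 0 of 4 genes with HSPB symbols passed by limma, with 1 lower at an unadjusted p under 0.05 and 1 lower by the exact rank-sum test. Hspb1 (Hsp27) was near the control level in leukemia and thymocytes, and Hspb2 and Hspb8 differed by 0.03 and -0.06. Hspb11 ran from 6.84 to 7.70 (median 7.58) in leukemias and read 7.78, 7.96, 7.71 and 7.96 in thymocytes. All leukemias were lower, leukemia 4 only just and leukemia 7 by most, and the difference of -0.42 (SE 0.15) did not pass (limma adjusted p = 0.0708).

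Of 7 chaperones of the ER (Hspa5, Hsp90b1, Dnajb9, Dnajb11, Dnajc1, Dnajc3 and Dnajc10) 0 passed by limma, at an unadjusted p under 0.05 or by the exact rank-sum test, with a median difference of -0.02. These values are those of the brightest probe sets. A second probe set of Dnajc1, below the control level in both groups, gave -0.21 (limma adjusted p = 0.0476 over all probe sets). Dnajc3 had probe sets of both signs, the brightest at 0.15 and the others at 0.10, -0.04 and -0.46, none past the limma test. Of the mitochondrial members 3 of 6 fell, and of the others 7 of 42, against 11.9% of all genes. Compartments were assigned after the values were known, and with so few genes and no test of the difference nothing is read from these counts. Hspa5 (BiP), the HSP70 of the ER, ran from 8.26 to 9.36 (median 8.77) in leukemias and read 8.85, 8.59, 8.25 and 8.33 in thymocytes. Leukemias 2, 3 and 7 exceeded all thymocyte arrays and the other 5 lay in their range (difference 0.33, SE 0.19, 95% interval -0.08 to 0.74). The same leukemias 2, 3 and 7, together with leukemia 1, were those above the thymocyte range of Hsp90b1.

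Promoter windows of Hspa5 and Hsp90b1 carry the ER stress element, CCAAT and CCACG with 9 free bases between them, searched on both strands, which 0.119% of all windows hold. They are printed to set beside the heat-shock elements above. The Hspa5 stretch is chr2:34771940-34772089 on the plus strand, the 150 bases before its start, and the Hsp90b1 stretch is chr10:86705525-86705664 on the minus strand, positions -220 to -81 (GRCm38.p6), with the fixed letters in capitals.
Hspa5: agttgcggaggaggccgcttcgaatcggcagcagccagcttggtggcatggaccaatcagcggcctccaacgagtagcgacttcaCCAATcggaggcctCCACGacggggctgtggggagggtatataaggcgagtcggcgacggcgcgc
Hsp90b1: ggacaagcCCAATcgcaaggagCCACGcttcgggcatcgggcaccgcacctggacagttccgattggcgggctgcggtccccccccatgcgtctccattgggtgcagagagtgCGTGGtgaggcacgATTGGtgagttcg

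RefSeq windows, from 250 bases before to 50 after a start, were found for 47 of the 55 members and for 9 of the 10 that fell. Heat-shock elements of 3 units (GAA and TTC in alternation, 2 free bases apart, either first, both strands) were in windows of 4 of these 47 genes (8.51%), against 0.662% of 27025 genes in the table. The 4 genes were Hspd1, Hspe1, Hsph1 and Dnajb6, of which Hspd1 and Hspe1 share the same letters and Hspd1 and Hsph1 fell. The looser form of 2 units, which every longer match also contains, was in 14 of 47 genes (29.8%), against 17.0% of all genes. The ER stress element was in 3 of 47 genes, Hspa5, Hsp90b1 and Dnajc3, against 0.137% of all genes. A match describes letters in the window and is no evidence of binding.

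Partner genes of the pathway, from a list of 82 of which 64 were on the array, changed in 11 cases, 7 lower and 4 higher (17.2%, near the 17.3% of all genes). Among co-chaperones of HSP90 4 of 16 fell, against 11.9% of all genes, with a median of -0.17. The phosphatase Ppp5c, which docks on HSP90, fell by 0.54 (SE 0.07, limma adjusted p = 0.000194), and Stip1 (Hop), which joins HSP70 to HSP90, by 0.56 (SE 0.12, limma adjusted p = 0.00508). The immunophilins Fkbp4 (-0.62) and Ppid (-0.53) were the other 2, named here after their values were seen. The probe set of Fkbp4 has a name that marks possible cross-hybridization. Among co-chaperones of HSP70 3 of 9 fell, against the same 11.9% of all genes. They were the mitochondrial exchange factor Grpel2 (-0.49), near the control level in leukemia, the ubiquitin ligase Stub1 (CHIP, -0.43), and St13 (Hip, -0.38), the last named after its value was seen.

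ER folding factors made up all 4 partner genes that rose, of 20 on the array, against 5.41% of all genes, with a median of 0.15. Ppib, a prolyl isomerase of the ER, was 0.70 higher (SE 0.16, limma adjusted p = 0.00675), and the oxidase Ero1b 0.55. Ero1b was near the control level in thymocytes, and the name of its probe set marks possible cross-hybridization. The disulfide isomerase Pdia3 was 0.46 higher and Herpud1, a component of ER-associated degradation, 0.43. Without probe sets of such names 3 partner genes were higher. Tested too were 7 prefoldin and TRiC regulators, 9 mitochondrial quality-control genes and 3 genes of heat-shock factors or their regulators. Of these 0 passed by limma or by the exact rank-sum test, with 2, 1 and 0 lower and 0 higher at an unadjusted p under 0.05. The heat-shock factors Hsf2 and Hsf4 were near the control level in both groups, so a difference there could not be measured. Hsf1 was not analysed here. Of 16 genes listed as a core set induced by heat shock, most of them members, 6 of 15 on the array fell (Hsph1, Hsp90aa1, Hspa4l, Hspd1, Dnaja1 and Stip1), with a median of -0.35, against 11.9% of all genes and 15.2% of those not near the control level in both groups. That list was drawn up with earlier results of these data known, so its count is no independent evidence. Of 14 listed as ER stress chaperones, 13 were on the array and 1, Herpud1, passed, upward. In these bulk samples, fewer cells with a transcript and less of it per cell cannot be told apart.

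**Figure D4:**
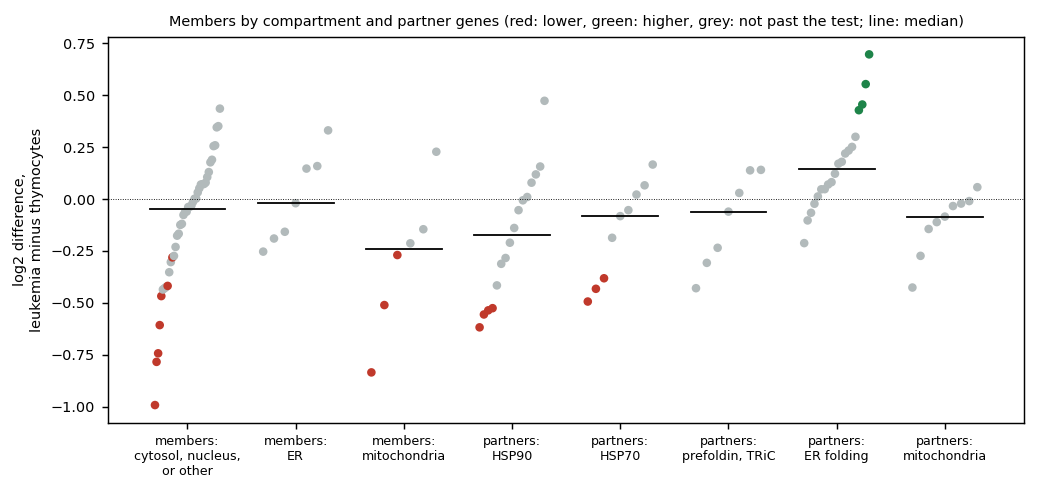
Each point is the log2 difference (leukemia minus thymocytes) of 1 gene, for the 55 members by compartment and for 5 of the 6 groups of partner genes; red points were lower, green higher and grey not past the test, and the line is the median. Green points appear among the 20 ER folding factors alone, and red points among cytosolic and mitochondrial members and the co-chaperones of HSP90 and HSP70.

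Leukemias varied more than thymocyte arrays in 42 of 55 members (76.4%, against 79.0% of all genes). The median SD was 0.19 over the leukemias and 0.13 over the thymocyte arrays. Members that differed most between leukemias were Dnajb13 (SD 0.84), the dim Dnajb9 (0.58) and Cct6a (0.55). The spread of Dnajb13 and Cct6a is that of the probe sets that split by title-number type. In leukemias these ran from 7.25 to 9.41 and from 7.06 to 8.40. The other probe set of each ran from 6.48 to 6.78 and from 6.44 to 7.06. Of the members called, Dnajc15 (0.41) and Dnaja1 (0.40) spread most and Dnajb4 (0.10) least. Averaged over all 55 members, the difference from the thymocyte mean was -0.22 to -0.04 in the leukemias and -0.07 to 0.05 in the thymocyte arrays, which overlap.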

How the data were processed

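The authors summarised the arrays with RMA, per the submitters' processing notes (no version or genome build is stated there), and the deposited values are intensities on a linear scale. They were taken to log2 without an offset. Of 12422 probe sets that are not Affymetrix controls, 10833 have 1 gene in the platform annotation, and the brightest probe set stands for each of 8251 genes. Groups were compared over all genes with limma 3.58.1 in R 4.3.3 (lmFit, eBayes, no covariate, two-sided, Benjamini-Hochberg adjusted p under 0.05), tested on simulated data. Near the control level means below the 95th percentile of 19 control probe sets for non-mouse transcripts. The number of arrays limits the precision. Members and lists were chosen with earlier results of these data known, and members were named by the largest moderated statistic per class, up to 4, or by brightness; other members described were picked for their known roles or after their values were seen. Alternatives were other variance models, scalings, probe set choices, an offset of 16, a rank-sum test, a threshold of 0.01, title numbers, a macrophage covariate and leaving out arrays. Promoter sequences are RefSeq's, matched by symbol.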

Additional observations from a re-analysis of the deposited data

How the results depend on the processing

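No paired analysis was possible because the labels give the groups no shared replicate numbers. Of 347 values of the 13 named members under the alternatives, 288 kept their side of the threshold. No longer passing were 53 values of 10 members, newly passing were 6 of 3 members, and 0 changed direction. The kept direction is no independent evidence. Most of the 13 were named for large differences in these arrays, and in 9 the groups did not overlap, which fixes the sign when arrays are left out. Other members, such as Hspe1 and Cct2, did change sign under some alternatives. The count of members called was 6 to 14 when 1 array was left out (lowest without thymocyte array 1, highest without leukemia 4). That of partner genes was 7 to 14 and that of all genes 938 to 1618. Members without overlap numbered 9 to 14. This number cannot fall below 9, since leaving out an array creates no overlap, and the like share of all genes was not computed. With array weights 21 members (6 higher, 15 lower), 21 partner genes and 2636 genes were called. At an adjusted p under 0.01 these were 6, 7 and 816. Within the arrays without a 4-digit title number (4 leukemias, 1 thymocyte array) 0 members, 0 partner genes and 4 genes were called by limma, and 30 members did not overlap, nor did 46.2% of all genes. Within the arrays with such a number 12 members and 1459 genes were called, and 17 members and 29.0% of all genes did not overlap. The rank-sum test called 6 partner genes and 1017 of all genes. The macrophage covariate left 7 partner genes and 1076 of all genes called. Quantile normalization left 6 members without overlap, and the like share of all genes was not computed. The title-number block called 12 members (1 higher, 11 lower) and 1624 genes, against 1429 without it. The cause of these moves was not tested, and fewer arrays were fitted in the subsets. Hsph1, Hsp90aa1, Hspa4l, Dnajb4, Dnajc9 and Dnajc15 passed in each alternative that tested them other than the arrays without a 4-digit number. Leaving out leukemias 5 and 7 was chosen after seeing the data.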
